A study of Saccharomyces cerevisiae with 8 samples.

Results

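The transcripts of 45 genes of amino acid synthesis were followed in a xylose-fermenting yeast, namely those of 44 enzyme genes of the arginine, lysine, histidine, aromatic, branched-chain, threonine and serine routes, and of *GCN4*, the gene of the transcription factor that activates many of them. They were taken by name from a table of 6328 genes by a rule that uses no measured value, though the list was drawn up with earlier results of these data known, and all 45 were found. *LEU2*, a leucine gene often used as a plasmid marker, was left out because the plasmids may carry it. RNA-seq was run on *Saccharomyces cerevisiae* strain Y128, which had received xylose isomerase, xylulokinase and transaldolase genes and was later evolved for growth on xylose in the absence of oxygen. The comparisons ask how gain or loss of Azf1, a zinc finger transcription factor, alters transcript levels in this strain.

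The 8 libraries formed 4 groups of 2. *AZF1* MoBY cells carried *AZF1* on the MoBY 2.0 plasmid, a multicopy plasmid with a G418 resistance marker. MoBY control cells carried the same plasmid without the gene. The *azf1Δ* cells lacked *AZF1*, which was replaced by a *KanMX* cassette, and WT was Y128 with neither change. Both plasmid groups were grown with 200 mg/L of the antibiotic G418, and *azf1Δ* and WT without it, so the MoBY control and WT groups differ in plasmid and drug together, which cannot be told apart. All groups carried the evolved loss-of-function alleles of *ISU1*, *HOG1*, *GRE3* and *IRA2* and were harvested in exponential growth without oxygen on rich yeast extract and peptone medium with 2% xylose. Yeast extract and peptone supply amino acids, so the medium was not free of them. The labels name the strain Y128, whereas the study's strain list gives the marker-rescued form Y133 for these genotypes, and the name in the labels is kept here.

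Yeast makes amino acids from intermediates of glycolysis, the pentose phosphate pathway and the citric acid cycle, and most of these routes share 1 regulator, Gcn4, through a response called general amino acid control. When amino acids run short, the kinase Gcn2 senses uncharged tRNA, and translation of *GCN4* mRNA increases through short upstream reading frames in its leader. Gcn4 then binds TGACTCA and close variants upstream of its target genes. RNA-seq counts *GCN4* mRNA and not this translational step, so Gcn4 protein was not measured here. Single routes have regulators of their own as well, such as Leu3 for branched-chain and Lys14 for lysine genes.

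Values are RPKM (reads per kilobase of gene, scaled to the mapped reads of the library), which can be compared between genes because they are scaled by gene length. Differences between groups are log2 changes of RPKM + 1 with their standard error from limma, a linear model fitted to all genes, and a gene is called where the p-value adjusted by the Benjamini-Hochberg method over all genes tested is under 0.05. The steps between low values gave 6.13e+06 to 7.09e+06 mapped reads per library, at which the 45 genes had from 53 to 9977 reads in a library. The duplicates came from different days, so the spread between 2 such cultures includes differences between days. The p-values rest on this spread pooled over the groups compared and drawn toward a trend over all genes. The deleted and added gene followed the labels: *AZF1* had 74.0 and 73.5 RPKM in *AZF1* MoBY, 13.3 and 14.3 RPKM in MoBY control, 0.0501 and 0.120 RPKM in *azf1Δ* and 13.2 and 11.6 RPKM in WT.

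The 45 genes together took less of the library in *AZF1* MoBY than in MoBY control and more in *azf1Δ* than in WT. Their share of the reads on genes was 1.37% in both *AZF1* MoBY libraries and 1.68% and 1.63% in MoBY control, against 2.14% and 2.09% in *azf1Δ* and 1.96% and 1.99% in WT. In each pair of groups the libraries did not overlap. Levels ran from 10.7 RPKM for *SER2*, the phosphoserine phosphatase gene, to 1226 RPKM for *ILV5*, the acetohydroxyacid reductoisomerase gene. *ILV5*, *GCN4* and *HOM6*, which encodes homoserine dehydrogenase, stood at 446 RPKM or more in all 8 libraries.

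**Figure D1:**
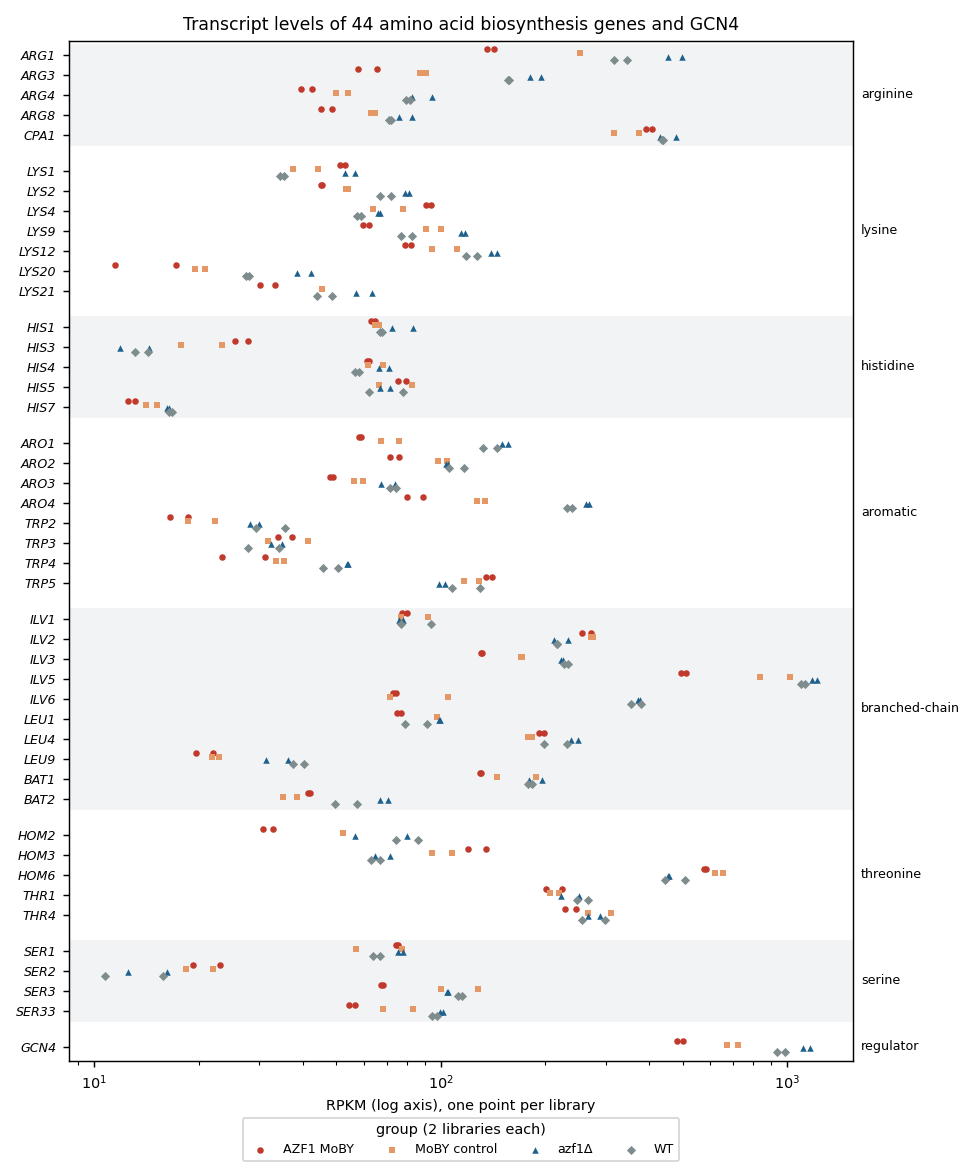
RPKM of the 45 genes on a log axis, 1 point per library, with rows grouped by pathway and 4 marks for the 4 groups of 2 libraries. *GCN4* runs from 481 RPKM in *AZF1* MoBY to 1168 RPKM in *azf1Δ*, while the histidine genes *HIS1*, *HIS4* and *HIS5* keep their 4 groups close together.

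The Gcn4 motif was searched in the 500 bases before each start codon of the S288C reference genome (R64), because the genome of the study's own alignment was not used here. TGACTCA, on either strand, occurred upstream of 25 of the 45 genes (55.6%) and of 240 of 6000 genes with such a window (4%). All 5 arginine genes had it, as did 7 of 10 branched-chain, 4 of 5 histidine, 4 of 8 aromatic, 3 of 5 threonine and 2 of 7 lysine genes, whereas none of the 4 serine genes and not *GCN4* had it. The 26 occurrences lay 101 to 484 bases before the start codon, and none overlapped a match of the other motifs searched. Those were AAAAGAAA for Azf1, in 19 of 45 windows (42.2%, against 30.5% of all windows), CCG and CGG with 4 bases of any kind between them for Leu3, in 7 (15.6%, against 3.28%), and TCCNNNGGA for Lys14, in 7 (15.6%, against 5.9%), each on both strands. A match is a run of letters, and binding was not measured.

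The windows shown are those of the 8 enzyme genes that carried the Gcn4 motif and were called lower in *AZF1* MoBY relative to MoBY control, followed by *ILV6*, which had the largest change between MoBY control and WT, and *HIS4*, a gene long used to study Gcn4 that was called in no comparison. Each line is read 5′ to 3′ on the gene's strand with 10 bases on either side, the motif is in capitals, coordinates are those of R64, and the distance runs from the first base of the motif to the start codon.
*ARG1*, chrXV:218856-218882, + strand, 345 bases before the start codon: gattttttagTGACTCAtgtcgcattt
*ARG3*, chrX:268475-268501, + strand, 314 bases: ggtcacgtcgTGACTCAtatgctttct
*ARG8*, chrXV:58569-58595, + strand, 180 bases: gctcgctatgTGACTCActtaaagtac
*ARO4*, chrII:718290-718316, - strand, 312 bases: tactgcgaaaTGACTCAacgatgaaat
*ILV3*, chrX:466327-466353, - strand, 135 bases: cctctccagaTGACTCAgtaatatagt
*ILV5*, chrXII:839548-839574, - strand, 311 bases: tggctgtcagTGACTCAtccgcgtttc
*ILV5*, chrXII:839377-839403, - strand, 140 bases: tgacctaactTGACTCAatggctttta
*LEU1*, chrVII:478937-478963, - strand, 301 bases: ttactctagaTGACTCAgtttagtctg
*HOM2*, chrIV:770163-770189, + strand, 184 bases: aagcattgatTGACTCAttttcctctg
*ILV6*, chrIII:105682-105708, - strand, 150 bases: accgttatcgTGACTCActttctttcg
*HIS4*, chrIII:68516-68542, - strand, 199 bases: ccatgcacagTGACTCAcgttttttta

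*ILV5* was the only member with 2 matches. The same motif thus stood upstream of genes that were called lower and of *HIS4*, which was not called. Among the 44 enzyme genes, 8 of the 25 with the motif and 4 of the 19 without it were called lower in *AZF1* MoBY relative to MoBY control, with median log2 changes of -0.24 and -0.13. Between MoBY control and WT, 10 of the 25 with the motif and 3 of the 19 without it were called lower, with medians of -0.26 and -0.01. Close variants of TGACTCA were not searched, so a gene without the motif may still carry one. These splits are descriptions of the 2 sets and were not tested.

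**Figure D2:**
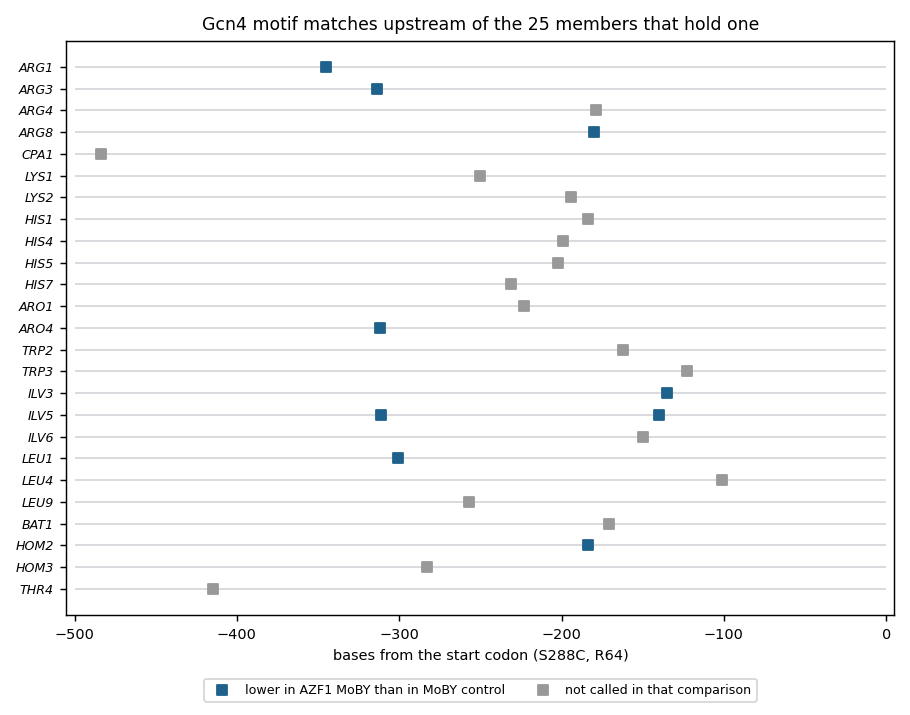
Position of each Gcn4 motif match, as bases from the start codon, for the 25 members that have one. Squares in blue belong to the 8 genes called lower in *AZF1* MoBY relative to MoBY control, and grey squares to the 17 that were not called there. Matches lie between 101 and 484 bases upstream.

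With extra *AZF1*, at least 1 synthesis gene was called lower in 6 of the 7 routes, and so was *GCN4*. In the threonine and serine routes this was 1 gene of 5 and 1 of 4, with 2 genes of each route above 0. Of the 45 genes, 13 were called lower and 0 higher in *AZF1* MoBY relative to MoBY control, against 6.17% of all 6029 genes called lower and 10.2% called higher (16.4% in all). A fit of all 8 libraries instead called 16 members lower and 3 higher, and median-ratio rescaling 10 lower and 0 higher. By limma's unadjusted p in the 4 libraries of this comparison, 21 members were lower and 3 higher. The median log2 change was -0.24 over the members and 0.00 over all genes tested, and both *AZF1* MoBY libraries lay below both MoBY control libraries for 25 members (28.1% of all genes did so) and above for 8 (30.9%). The 13 called genes were *ARG1*, *ARG3*, *ARG8*, *LYS9*, *LYS21*, *ARO2*, *ARO4*, *ILV3*, *ILV5*, *LEU1*, *HOM2*, *SER3* and *GCN4*. All 13 kept their direction whichever library was left out, but without *AZF1* MoBY replicate A or B no gene of the table passed the test (14 and 11 members had an unadjusted p under 0.05), and without MoBY control replicate A or B 5 members were called each time.

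Loss of *AZF1* moved fewer of these genes, and those that passed the test were of the arginine and lysine routes. In *azf1Δ*, *ARG1*, *LYS1* and *LYS9* were called higher than in WT and 0 members lower, against 0.942% of 5944 genes called higher and 0.791% called lower (1.73% in all). By limma's unadjusted p, 14 members were higher, among them all 7 lysine genes, and 0 lower. The median log2 change was 0.12 over the members and 0.04 over all genes, and both *azf1Δ* libraries lay above both WT libraries for 23 members (30.7% of all genes) and below for 5 (17.6%). Without any 1 of the 4 libraries, *azf1Δ* or WT replicate A or B, 0 genes of the table were called, with 540 to 813 at an unadjusted p under 0.05. The 3 calls were lost too without the filter on low values, without a variance trend and with a replicate block.

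The empty plasmid with G418 also went with lower levels of many members. In MoBY control relative to WT, 14 were called lower and 2 higher, against 10.6% of 5991 genes called lower and 13.2% called higher (23.7% in all). The median log2 change was -0.17 over the members and -0.02 over all genes, and both MoBY control libraries lay below both WT libraries for 26 members (32.6% of all genes) and above for 10 (30.4%). The calls numbered 1 when either WT library was left out, 4 when MoBY control replicate A was left out and 3 when its replicate B was, and *ILV6* was among them each time. This comparison shares its MoBY control libraries with the first and its WT libraries with the second, so the values of a gene are given side by side below and the lists are not compared.

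**Figure D3:**
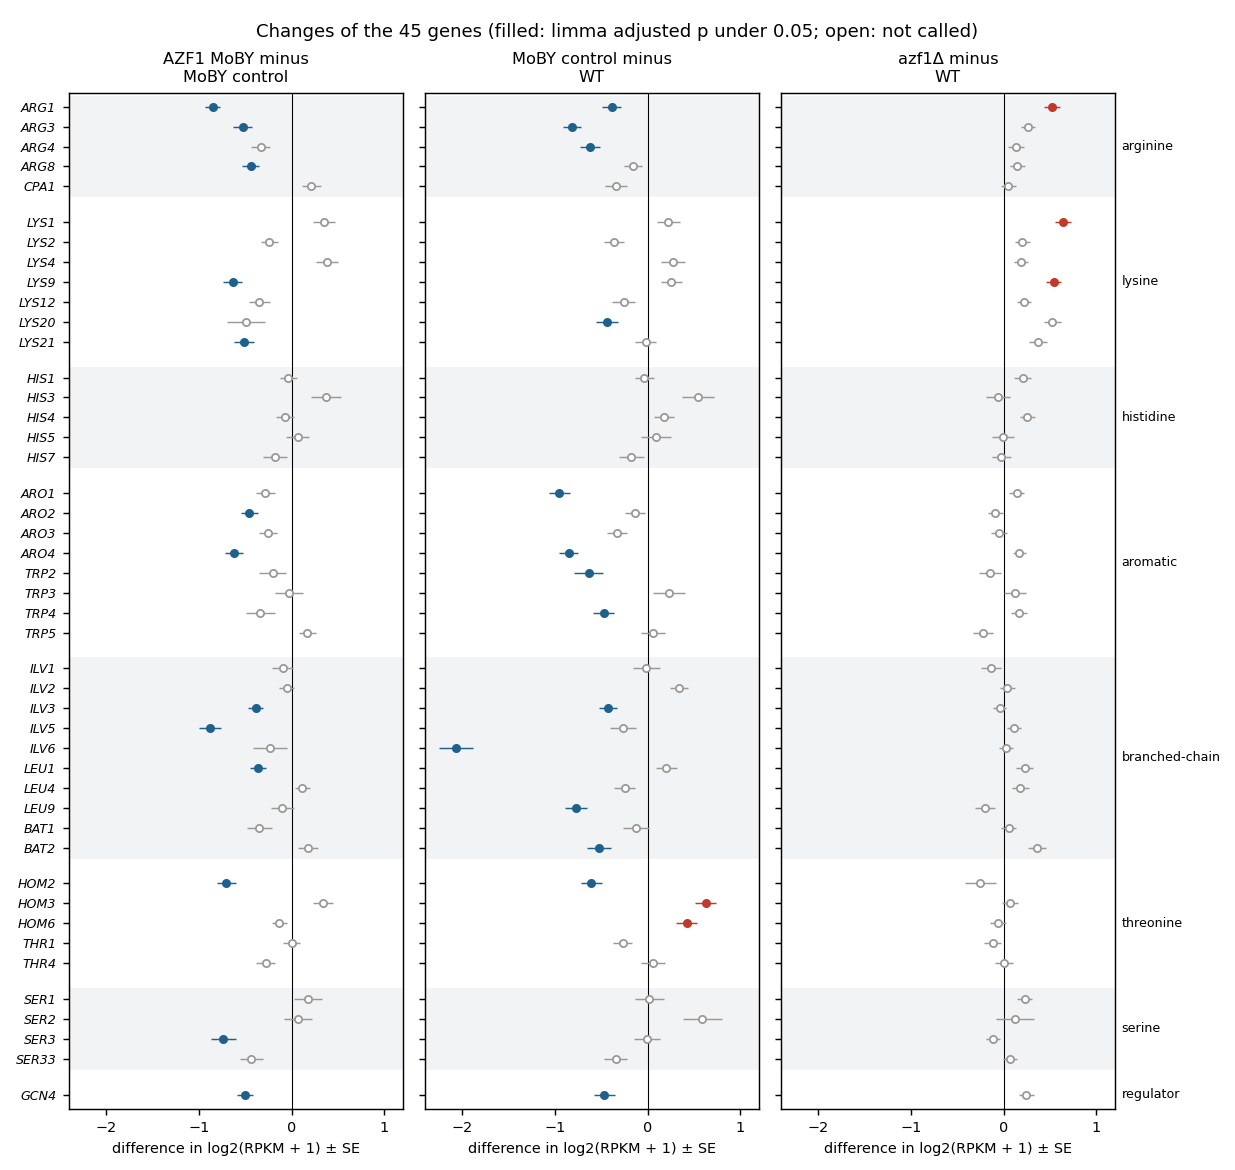
Difference in log2(RPKM + 1) with its standard error for the 45 genes, for *AZF1* MoBY minus MoBY control, MoBY control minus WT and *azf1Δ* minus WT (n = 2 libraries per group). Filled points were called, blue lower and red higher: 13 lower in the left panel, 14 lower and 2 higher in the middle, and 3 higher on the right.

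*GCN4* itself was lowest in *AZF1* MoBY and highest in *azf1Δ*. It had 501 and 481 RPKM in *AZF1* MoBY, 724 and 671 RPKM in MoBY control, 1168 and 1113 RPKM in *azf1Δ* and 989 and 936 RPKM in WT. No 2 groups overlapped. The log2 change was -0.50 ± 0.09 (SE) for *AZF1* MoBY against MoBY control (limma adjusted p = 0.0158) and -0.46 ± 0.11 for MoBY control against WT (adjusted p = 0.03). For *azf1Δ* against WT it was 0.24 ± 0.08 and was not called (adjusted p = 0.205). Both *GCN4* calls were lost with no variance trend.

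Arginine genes included the member called in most comparisons. *ARG1*, which encodes argininosuccinate synthetase, had 136 and 143 RPKM in *AZF1* MoBY, 252 in both MoBY control libraries, 498 and 455 RPKM in *azf1Δ* and 317 and 345 RPKM in WT. It was the only member called in all 3 pairwise comparisons, although the call between MoBY control and WT was lost with median-ratio rescaling or no variance trend, and the *azf1Δ* call with these and with no filter or a replicate block. Its log2 change was -0.85 ± 0.08 for *AZF1* MoBY against MoBY control (limma adjusted p = 0.00353), -0.39 ± 0.10 for MoBY control against WT (adjusted p = 0.0398) and 0.52 ± 0.09 for *azf1Δ* against WT (adjusted p = 0.0416). *ARG3*, the ornithine carbamoyltransferase gene, had 65.3 and 57.7 RPKM in *AZF1* MoBY, 90.5 and 87.4 RPKM in MoBY control, 195 and 181 RPKM in *azf1Δ* and 156 and 158 RPKM in WT. It kept the same order of groups as *ARG1*, without overlap. Its change was called in *AZF1* MoBY (-0.53 ± 0.10, adjusted p = 0.023) and in MoBY control against WT (-0.81 ± 0.10, adjusted p = 0.00243) and not in *azf1Δ* (0.26 ± 0.08, adjusted p = 0.172). The *ARG3* call in *AZF1* MoBY was lost with no variance trend.

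*ARG4* and *ARG8* were each called lower in 1 pairwise comparison. *ARG4*, the argininosuccinate lyase gene, had 39.7 and 42.5 RPKM in *AZF1* MoBY, 54.2 and 49.9 RPKM in MoBY control, 94.4 and 82.7 RPKM in *azf1Δ* and 79.3 and 81.6 RPKM in WT. It was called between MoBY control and WT (-0.62 ± 0.11, adjusted p = 0.00878). *ARG8*, whose product is an acetylornithine aminotransferase of the mitochondrion, had 48.5 and 45.3 RPKM in *AZF1* MoBY, 64.9 and 63.1 RPKM in MoBY control, 76.1 and 82.7 RPKM in *azf1Δ* and 71.0 and 72.0 RPKM in WT, and was called in *AZF1* MoBY against MoBY control (-0.44 ± 0.10, adjusted p = 0.032). The *ARG8* call was lost with median-ratio rescaling, no variance trend or a replicate block. *CPA1*, the small subunit of carbamoyl phosphate synthetase and the member whose mRNA is controlled by arginine through a peptide encoded in its leader, was called nowhere. It had 393 and 407 RPKM in *AZF1* MoBY, 375 and 317 RPKM in MoBY control, 478 and 431 RPKM in *azf1Δ* and 439.6 and 437 RPKM in WT, and its groups overlapped between *azf1Δ* and WT.

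Lysine genes split within the route. *LYS9*, which encodes the saccharopine dehydrogenase of the step before the last, had 62.2 and 59.7 RPKM in *AZF1* MoBY, 90.5 and 100.4 RPKM in MoBY control, 115 and 118 RPKM in *azf1Δ* and 76.6 and 82.7 RPKM in WT. It was called lower in *AZF1* MoBY relative to MoBY control (-0.64 ± 0.10, limma adjusted p = 0.0118) and higher in *azf1Δ* than in WT (0.54 ± 0.08, adjusted p = 0.0358). *LYS1*, whose product releases lysine in the last step, had 53.1 and 51.3 RPKM in *AZF1* MoBY, 44.3 and 37.5 RPKM in MoBY control, 56.5 and 53.1 RPKM in *azf1Δ* and 35.3 and 34.3 RPKM in WT. It was higher in *azf1Δ* (0.64 ± 0.08, adjusted p = 0.0288), the largest change of a member there, and stood above MoBY control in *AZF1* MoBY without a call (0.35 ± 0.12, adjusted p = 0.105). Both *LYS1* libraries of *AZF1* MoBY and of *azf1Δ* lay above those of their own control, whereas *LYS9* lay on opposite sides.

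The paired isozymes of the first step, *LYS20* and *LYS21*, are homocitrate synthase genes of nearly the same sequence, and how reads fitting both were counted is not given in the sources used here. *LYS21* had 33.4 and 30.1 RPKM in *AZF1* MoBY, 45.6 in both MoBY control libraries, 56.9 and 63.6 RPKM in *azf1Δ* and 44.0 and 48.5 RPKM in WT, and was called in *AZF1* MoBY (-0.51 ± 0.11, limma adjusted p = 0.0285). *LYS20* had 17.3 and 11.5 RPKM in *AZF1* MoBY, 19.6 and 20.8 RPKM in MoBY control, 42.2 and 38.6 RPKM in *azf1Δ* and 27.5 and 28.1 RPKM in WT. It was called between MoBY control and WT (-0.44 ± 0.12, adjusted p = 0.0418), and its change in *azf1Δ* lay just outside the threshold (0.52 ± 0.09, adjusted p = 0.0506). That *LYS20* call was lost with no filter on low values, no variance trend, 1 fit of all 8 libraries or a replicate block. The *LYS21* call was lost with no variance trend or a replicate block. *LYS2* (aminoadipate reductase), *LYS4* (homoaconitase) and *LYS12* (homoisocitrate dehydrogenase) were called in no pairwise comparison. *LYS4* had the largest positive change of any member in *AZF1* MoBY, 0.38 ± 0.12, at an adjusted p of 0.0875. The median log2 change of the 7 genes was 0.37 for *azf1Δ* against WT, the highest of the pathways, and -0.35 for *AZF1* MoBY against MoBY control.

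None of the 5 histidine genes passed the test in any comparison. *HIS4*, whose product catalyses several steps of the route, had 61.4 and 62.2 RPKM in *AZF1* MoBY, 61.8 and 68.1 RPKM in MoBY control, 71.0 and 66.3 RPKM in *azf1Δ* and 58.1 and 56.5 RPKM in WT. *HIS1*, which encodes the first enzyme, had 64.9 and 63.1 RPKM in *AZF1* MoBY, 66.3 and 64.9 RPKM in MoBY control, 83.3 and 72.5 RPKM in *azf1Δ* and 66.7 and 67.6 RPKM in WT. Their log2 changes in *AZF1* MoBY against MoBY control were -0.07 ± 0.10 and -0.03 ± 0.09. In *azf1Δ* against WT they were 0.26 ± 0.08 (limma adjusted p = 0.194) and 0.21 ± 0.09 (adjusted p = 0.313). For each gene both *azf1Δ* libraries lay above both WT libraries. *HIS3*, the dehydratase gene, had its larger values in both plasmid groups, with 27.9 and 25.5 RPKM in *AZF1* MoBY and 17.8 and 23.4 RPKM in MoBY control, against 11.9 and 14.4 RPKM in *azf1Δ* and 13.1 and 14.3 RPKM in WT, but the change between MoBY control and WT (0.54 ± 0.17) had a limma adjusted p of 0.0653. That change was called with median-ratio rescaling, in 1 fit of all 8 libraries and with a replicate block. The median of the 5 genes in *AZF1* MoBY against MoBY control, -0.03, changed sign to 0.01 with a median-ratio rescaling. At an unadjusted p under 0.05, 0 of the 5 differed between the plasmid groups, 1 between *azf1Δ* and WT, and 1 between MoBY control and WT.

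Among aromatic genes *ARO4* had the largest change in *AZF1* MoBY and *ARO1* in MoBY control against WT. *ARO4*, which encodes the tyrosine-inhibited isozyme of the first step, had 89.3 and 79.9 RPKM in *AZF1* MoBY, 134 and 127 RPKM in MoBY control, 263 and 269 RPKM in *azf1Δ* and 241 and 232 RPKM in WT. It was called lower in *AZF1* MoBY relative to MoBY control (-0.62 ± 0.10, limma adjusted p = 0.0122) and lower in MoBY control relative to WT (-0.85 ± 0.10, adjusted p = 0.00218). *ARO3*, the phenylalanine-inhibited isozyme, had 48.8 and 47.8 RPKM in *AZF1* MoBY, 56.1 and 59.7 RPKM in MoBY control, 74.0 and 67.2 RPKM in *azf1Δ* and 74.5 and 71.5 RPKM in WT, and was called in none of these comparisons. *ARO1*, which encodes a protein of 5 enzyme activities, had 58.1 and 58.9 RPKM in *AZF1* MoBY, 76.1 and 67.2 RPKM in MoBY control, 156 and 150.1 RPKM in *azf1Δ* and 146 and 133 RPKM in WT. Its plasmid groups lay far below the others, and it was called between MoBY control and WT (-0.95 ± 0.12, adjusted p = 0.0026). *ARO2*, the chorismate synthase gene at the end of the route, had 71.5 and 76.1 RPKM in *AZF1* MoBY, 98.4 and 105 RPKM in MoBY control, 105 and 104 RPKM in *azf1Δ* and 106 and 117 RPKM in WT, and was called only in *AZF1* MoBY (-0.45 ± 0.09, adjusted p = 0.0262). The *ARO2* call was lost with no variance trend.

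On the tryptophan branch, *TRP2* and *TRP4*, which encode the anthranilate synthase and the phosphoribosyltransferase that follows it, were called lower in MoBY control relative to WT. *TRP2* had 22.3 and 18.6 RPKM in MoBY control against 35.5 and 29.2 RPKM in WT (-0.63 ± 0.15, limma adjusted p = 0.0304). *TRP4* had 33.6 and 35.3 RPKM in MoBY control against 45.9 and 50.6 RPKM in WT (-0.47 ± 0.11, adjusted p = 0.0296). The *TRP2* call was lost with no filter on low values or no variance trend, and the *TRP4* call with no variance trend. *TRP3* and *TRP5* were called in no comparison. *TRP5*, the tryptophan synthase gene, had the largest positive change of the aromatic genes in *AZF1* MoBY, 0.17 ± 0.09, and the largest negative one in *azf1Δ*, -0.22 ± 0.10, neither past the threshold.

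Branched-chain genes held the largest member changes in both comparisons of plasmid groups. *ILV5* had 512 and 495 RPKM in *AZF1* MoBY, 838 and 1024 RPKM in MoBY control, 1184 and 1226 RPKM in *azf1Δ* and 1128 and 1098 RPKM in WT. Both *AZF1* MoBY libraries lay far below all others, and the change of -0.88 ± 0.12 (limma adjusted p = 0.00774) was the largest of a member in that comparison. *ILV3*, the dihydroxyacid dehydratase gene of the next step, had 131 and 132 RPKM in *AZF1* MoBY, 172 and 171 RPKM in MoBY control, 226 and 223 RPKM in *azf1Δ* and 228 and 234 RPKM in WT. It was called lower in *AZF1* MoBY (-0.39 ± 0.08, adjusted p = 0.0272) and in MoBY control against WT (-0.42 ± 0.10, adjusted p = 0.0246). Both *ILV3* calls were lost with no variance trend, and the first also with median-ratio rescaling or a replicate block. *LEU1*, whose product is the isopropylmalate isomerase of the leucine branch, had 76.6 and 75.1 RPKM in *AZF1* MoBY, 97.7 in both MoBY control libraries, 99.0 and 99.7 RPKM in *azf1Δ* and 91.1 and 78.8 RPKM in WT, and was called in *AZF1* MoBY alone of the pairwise comparisons (-0.36 ± 0.08, adjusted p = 0.0398). This *LEU1* call was lost with median-ratio rescaling, no variance trend or a replicate block.

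*ILV6* separated the plasmid groups from the others. The gene encodes the regulatory subunit of acetolactate synthase, which makes the catalytic subunit Ilv2 sensitive to valine. It had 73.0 and 74.5 RPKM in *AZF1* MoBY and 71.5 and 105 RPKM in MoBY control, against 372 and 377 RPKM in *azf1Δ* and 380.0 and 355 RPKM in WT. The change between MoBY control and WT was -2.07 ± 0.19 (limma adjusted p = 0.000735), and there was no call in *AZF1* MoBY against MoBY control (-0.23 ± 0.18, adjusted p = 0.454) or in *azf1Δ* against WT (0.03 ± 0.08, adjusted p = 0.88). *ILV2* did not share this pattern, with 256 and 272 RPKM in *AZF1* MoBY, 272 and 276 RPKM in MoBY control, 234 and 212 RPKM in *azf1Δ* and 217 in both WT libraries.

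A further pair of the group was called lower in MoBY control relative to WT. *LEU9*, a gene for the minor isopropylmalate synthase, had 22.9 and 21.9 RPKM in MoBY control against 40.2 and 37.5 RPKM in WT (-0.77 ± 0.12, limma adjusted p = 0.00575). *BAT2*, the cytosolic branched-chain aminotransferase gene, had 35.0 and 38.6 RPKM in MoBY control against 49.5 and 57.3 RPKM in WT (-0.52 ± 0.13, adjusted p = 0.0293). The *BAT2* call was lost with no variance trend. The partners of *LEU9* and *BAT2*, namely *LEU4*, the main isopropylmalate synthase gene, and *BAT1*, the mitochondrial aminotransferase gene, were called nowhere. Nor were *ILV1*, the threonine deaminase gene, and *ILV2*.

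**Figure D4:**
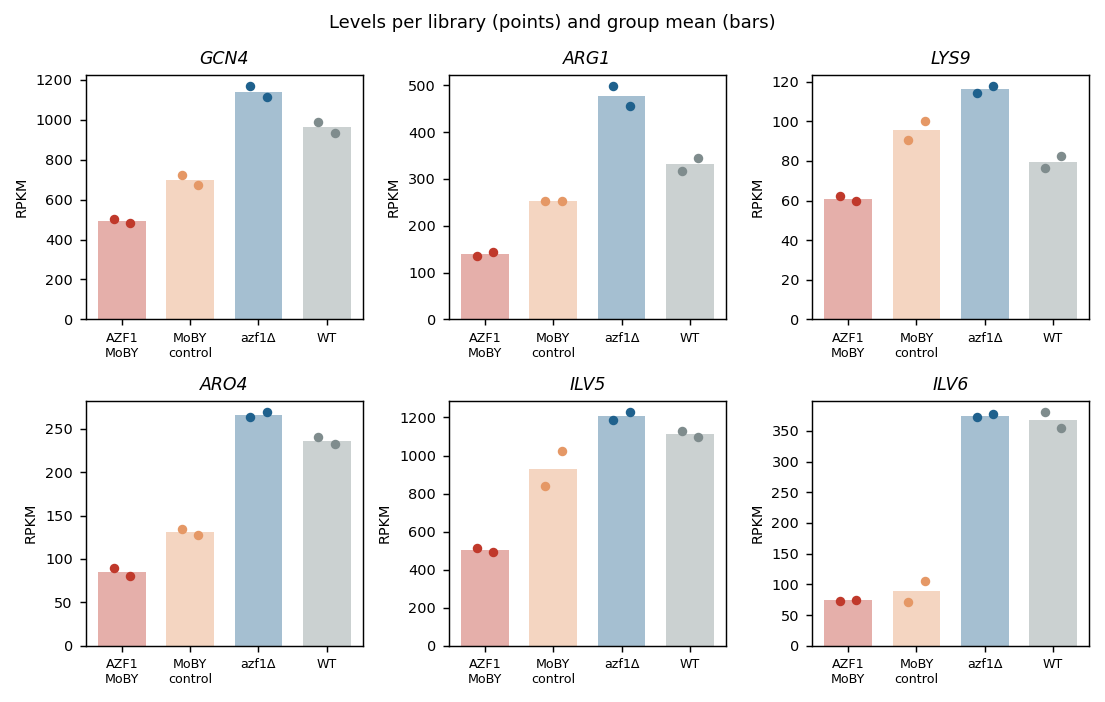
RPKM of *GCN4*, *ARG1*, *LYS9*, *ARO4*, *ILV5* and *ILV6* in each library (points) with the mean of the group (bars, axis from 0). *AZF1* MoBY is lowest for the first 5 genes, whereas *ILV6* is at 71.5 to 105 RPKM in both plasmid groups and 355 RPKM or more in *azf1Δ* and WT.

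Threonine genes moved in both directions between MoBY control and WT. *HOM3*, the aspartate kinase gene at the head of the route, had 120.3 and 135 RPKM in *AZF1* MoBY, 108 and 94.4 RPKM in MoBY control, 71.5 and 64.9 RPKM in *azf1Δ* and 66.7 and 63.1 RPKM in WT, and was higher in MoBY control than in WT (0.63 ± 0.11, limma adjusted p = 0.011). *HOM2*, which encodes the semialdehyde dehydrogenase of the next step, had 32.9 and 30.7 RPKM in *AZF1* MoBY, 52.3 in both MoBY control libraries, 79.9 and 56.5 RPKM in *azf1Δ* and 86.2 and 74.5 RPKM in WT. It was called lower in *AZF1* MoBY relative to MoBY control (-0.70 ± 0.10, adjusted p = 0.00938) and lower in MoBY control relative to WT (-0.61 ± 0.12, adjusted p = 0.0131). These adjacent steps therefore changed in opposite directions between MoBY control and WT. *HOM6* had 576 and 584 RPKM in *AZF1* MoBY, 653 and 622 RPKM in MoBY control, 458 and 455 RPKM in *azf1Δ* and 508 and 446 RPKM in WT, and was higher in MoBY control than in WT (0.42 ± 0.12, adjusted p = 0.0462). That *HOM6* call was lost with median-ratio rescaling, no filter on low values or no variance trend. *THR1* and *THR4*, the homoserine kinase and threonine synthase genes, were called in no comparison.

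Of the serine genes, *SER3* was called in 1 pairwise comparison and *SER1*, *SER2* and *SER33* in none. *SER3* encodes a phosphoglycerate dehydrogenase of the first step, and had 67.2 and 68.1 RPKM in *AZF1* MoBY, 114 ± 19.5 RPKM in MoBY control (mean ± SD, n = 2, with the lower library at 100.4), 105 in both *azf1Δ* libraries and 112 and 115 RPKM in WT. Its change in *AZF1* MoBY was -0.74 ± 0.13 (limma adjusted p = 0.0188), a call lost with no variance trend. The reading frame overlaps the annotated non-coding transcript *SRG1* by 77 bases on the same strand in R64, so reads there cannot be told apart by strand. Its isozyme gene *SER33*, whose sequence is nearly the same, had 54.6 and 56.5 RPKM in *AZF1* MoBY, 83.3 and 68.1 RPKM in MoBY control, 99.7 and 102 RPKM in *azf1Δ* and 94.4 and 97.7 RPKM in WT, with a change in *AZF1* MoBY of -0.43 ± 0.12 at an adjusted p of 0.0699.

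Ratios of RPKM within a library put isozymes and subunits on 1 scale, and are given as descriptions without a test. The pair of *ILV6* and *ILV2* was chosen after its values were seen. The *ILV6* to *ILV2* ratio was 0.279 ± 0.00821 in *AZF1* MoBY, 0.322 ± 0.0842 in MoBY control, 1.68 ± 0.132 in *azf1Δ* and 1.69 ± 0.083 in WT (mean ± SD, n = 2 each), so the regulatory transcript was the scarcer one in both plasmid groups and the more abundant one in the others. The *ARO4* to *ARO3* ratio was 1.75 ± 0.111 in *AZF1* MoBY, 2.26 ± 0.188 in MoBY control, 3.78 ± 0.314 in *azf1Δ* and 3.24 ± 0.0159 in WT. *ARO4* was the more abundant isozyme in all 8 libraries, by the least in *AZF1* MoBY. The *LEU4* to *LEU9* ratio was 9.42 ± 0.508 in *AZF1* MoBY, 8.08 ± 0.119 in MoBY control, 7.27 ± 0.959 in *azf1Δ* and 5.55 ± 0.326 in WT. For *LYS20* to *LYS21* the means were 0.45 in *AZF1* MoBY, 0.443 in MoBY control, 0.675 in *azf1Δ* and 0.601 in WT, and the libraries of *AZF1* MoBY and MoBY control overlapped. *SER3* to *SER33* stayed between 1.04 and 1.54 in all libraries, and *BAT1* to *BAT2* between 2.69 and 5.39.

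**Figure D5:**
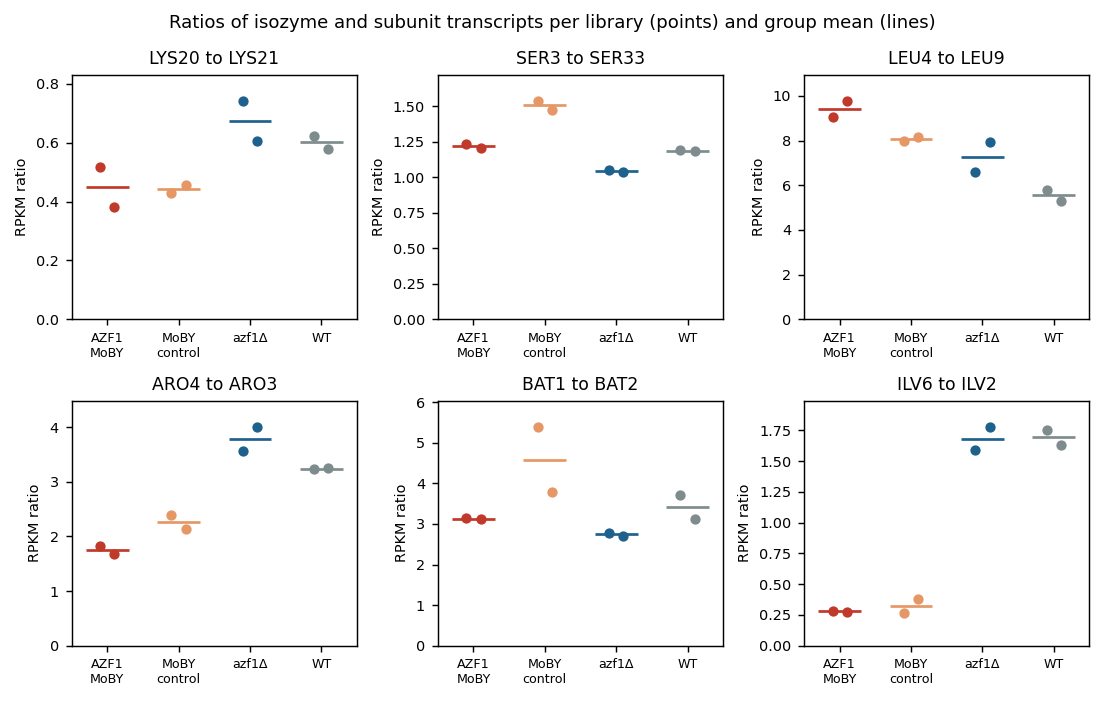
Ratio of 2 transcripts' RPKM in each library (points) and group mean (line) for 5 isozyme pairs and for the subunits *ILV6* and *ILV2*, axes from 0. The *ILV6* to *ILV2* ratio is 0.382 or less in the 4 plasmid libraries and 1.59 or more in the 4 others.

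Gain and loss of *AZF1* were set against each other in 1 model of all 8 libraries, as the change in *AZF1* MoBY over MoBY control minus the change in *azf1Δ* over WT. Of the 45 members, 14 had a negative difference past the threshold and 0 a positive one, against 6.8% of 6105 genes with a negative and 7.9% with a positive difference (14.7% in all). By limma's unadjusted p, 21 members were negative and 1 positive. The median was -0.29 over the members and -0.04 over all genes tested. They comprised 3 of 5 arginine genes, 5 of 7 lysine genes, 1 aromatic, 3 branched-chain and 1 serine gene and *GCN4*, and no histidine or threonine gene. *ARG1* differed most, at -1.37 ± 0.12 (adjusted p = 0.000765), followed by *LYS9* at -1.18 ± 0.12 (adjusted p = 0.00157) and *LYS20* at -1.01 ± 0.24 (adjusted p = 0.0232). For *GCN4* the difference was -0.75 ± 0.12 (adjusted p = 0.00576). Leaving out a library gave 8 to 18 calls among the members, with the fewest, 8, without *azf1Δ* replicate A or B or *AZF1* MoBY replicate B and 9 without WT replicate B.

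Genes beside the 45 were described from lists of enzymes of the same routes, regulators, other amino acid synthesis and amino acid breakdown. Over all genes tested, 10.2% were called higher and 6.17% lower in *AZF1* MoBY against MoBY control. The shares were 13.2% and 10.6% in MoBY control against WT, and 0.942% and 0.791% in *azf1Δ* against WT. Of 12 further enzymes of the same routes, 1 was called higher in *AZF1* MoBY than in MoBY control, *HIS6*, an isomerase gene of the histidine route (1.29 ± 0.22, limma adjusted p = 0.015), and 0 lower, with 3 at an unadjusted p under 0.05. Of 10 regulators, among them *GCN2* and *LEU3*, 0 were called in *AZF1* MoBY or in *azf1Δ* (0 and 1 had an unadjusted p under 0.05). Between MoBY control and WT 1 was called, *PCL5*, a cyclin whose kinase marks Gcn4 for breakdown (-0.48 ± 0.12, adjusted p = 0.0354). Of 11 genes for other amino acids, 4 were lower in *AZF1* MoBY relative to MoBY control, among them *GDH1*, the main glutamate dehydrogenase of ammonia assimilation (-0.96 ± 0.08, adjusted p = 0.00291), and *ASN1*, an asparagine synthetase gene (-0.77 ± 0.08, adjusted p = 0.00468). The other 2 called genes of that list, *GLY1* (threonine aldolase, 0.70 ± 0.09, adjusted p = 0.00769) and *SHM2*, were higher. Both were also called higher in MoBY control than in WT (*GLY1* 0.89 ± 0.11, limma adjusted p = 0.00226, and *SHM2* 0.49 ± 0.11, adjusted p = 0.0202). In that comparison *ASN2* was called higher too, and *GLN1* lower (-0.95 ± 0.11, adjusted p = 0.00195). In *azf1Δ* against WT, *ASN1* was the 1 gene of that list called (0.56 ± 0.08, adjusted p = 0.0291).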

How the data were processed

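RNA was depleted of rRNA, made into strand-specific libraries and sequenced by the authors, who trimmed reads with Trimmomatic 0.3.0, aligned them to the Y22-3 genome with Bowtie2 2.2.2, counted them per gene with HTSeq 0.6.0 and deposited 1 table of log2 RPKM values with 2 decimals, so libraries can hold equal values. The strand setting and the handling of reads that fit several genes are not given in the sources used here. Depth was recovered from the steps of low values, of which 87.0 to 91.8% lay within 0.15 of whole reads. Reads and shares rest on R64 lengths.

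Values were returned to RPKM, increased by 1, put on a log2 scale and tested with limma 3.58.1 (R 4.3.3, eBayes with a variance trend) in the 4 libraries of each comparison, over genes at 1 RPKM or more in 2 libraries. The difference of effects used all 8. The method was also run on simulated data with independent normal noise, which leaves the dependence on single libraries seen here untested. The members, lists and tests were chosen with earlier results of these data known. All members are described. Values per library are given for *GCN4* and called members (up to 3 per pathway and comparison where many were called), and pathway extremes may be named. *HIS1*, *HIS4*, *ARO3*, *ILV2* and *SER33*, shown beside them, were chosen after values were seen. Alternatives were a pseudocount of 0.25, no filter, no variance trend, median-ratio rescaling, 1 fit of all 8 libraries, a replicate block and leaving out each library. Motifs were searched in 500 bases upstream of start codons in R64. *LYS14* was not analysed here. No RefSeq promoter table was used.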

Additional observations from a re-analysis of the deposited data

Results flagged for a closer look

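The 14 members given here differed between the effect of extra *AZF1* (*AZF1* MoBY over MoBY control) and the effect of its loss (*azf1Δ* over WT) by limma's test of that difference. The arginine genes differed by -1.37 (*ARG1*), -0.79 (*ARG3*) and -0.59 (*ARG8*) on the log2 scale. The lysine genes differed by -0.44 (*LYS2*), -1.18 (*LYS9*), -0.56 (*LYS12*), -1.01 (*LYS20*) and -0.88 (*LYS21*). *ARO4* differed by -0.79, *ILV3* by -0.35, *ILV5* by -0.99, *LEU1* by -0.59, *SER3* by -0.62 and *GCN4* by -0.75. *LYS2*, *LYS12* and *LYS20* passed this test while neither single effect passed its own. The *LYS2*, *LYS12*, *ILV3* and *SER3* differences were not called with median-ratio rescaling or with no variance trend. What lies behind the differences was not tested.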

How the results depend on the processing

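Calls in *azf1Δ* against WT were the least stable. The genes and members called, 103 and 3, became 5 and 0 with no filter on low values, 5 and 0 with no variance trend, 61 and 1 (*LYS1*) with median-ratio rescaling, and 0 and 0 with a replicate block (limma, 803 genes and 10 members at an unadjusted p under 0.05). Without 1 library they were 0 and 0. Replicate letters did not pair the libraries (correlations of deviations from -0.107 to 0.0113). A crossed block for *azf1Δ* and WT, added after seeing the data, called 41 genes and 0 members. In the other comparisons the block called 674 genes and 9 members (*AZF1* MoBY), 1497 and 17 (MoBY control against WT) and 819 and 13 (difference of effects). For *AZF1* MoBY, no variance trend gave 599 genes and 5 members, and leaving out a library 0 to 527 and 0 to 5. For MoBY control against WT, no variance trend gave 8 members, and leaving out a library 289 to 485 genes and 1 to 4 members. For the difference of effects the ranges were 370 to 1138 genes and 8 to 18 members. Rescaling changed the split of higher and lower calls over all genes from 56 and 47 to 24 and 37 in *azf1Δ*, and from 482 and 415 to 612 and 284 for the difference of effects. Among the values traced, signs turned only where the gene was not called: with rescaling, *CPA1* in *azf1Δ* (-0.000933) and *SER1* in the difference of effects (0.0417), and over left-out libraries *CPA1* (-0.0249 to 0.125), *HIS3* (-0.19 to 0.0699) and *HOM3* (-8.29e-06 to 0.138) in *azf1Δ*, *SER1* in *AZF1* MoBY (-0.0395 to 0.394), and *SER1* (-0.266 to 0.167) and *LEU9* (-0.00285 to 0.201) in the difference of effects. The cause of the lost calls was not tested.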

Other observations

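Of 8 amino acid breakdown genes, 3 were called higher in *AZF1* MoBY than in MoBY control and 0 lower, against 10.2% of all genes called higher: *ARO9*, an aromatic aminotransferase (1.39 ± 0.15, limma adjusted p = 0.00456), *ARO10*, a phenylpyruvate decarboxylase (1.16 ± 0.10, adjusted p = 0.00306), and *PUT1*, proline oxidase (1.07 ± 0.14, adjusted p = 0.00684). The other 5 did not pass the test, with log2 changes from -0.07 for *CHA1* to 0.59 for *CAR2*. In *azf1Δ* against WT, 0 of the 8 were called by limma and 3 had an unadjusted p under 0.05. *ARO9* and *ARO10* had log2 changes there of -0.41 ± 0.14 (adjusted p = 0.216) and -0.46 ± 0.12 (adjusted p = 0.135). The difference between the 2 effects was positive and called for 4 of the 8 (7.9% of all genes), *CAR2*, *PUT1*, *ARO9* (1.80 ± 0.21, adjusted p = 0.00194) and *ARO10* (1.63 ± 0.16, adjusted p = 0.00148). In MoBY control against WT, 2 of the 8 were called lower, *CAR2*, the ornithine aminotransferase of arginine breakdown (-1.83 ± 0.13, adjusted p = 0.000323), and *GDH2*, the catabolic glutamate dehydrogenase (-0.80 ± 0.11, adjusted p = 0.00373), against 10.6% of all genes. Called higher were *PUT1* (1.31 ± 0.22, adjusted p = 0.00782) and *ARO9* (0.52 ± 0.15, adjusted p = 0.0482), against 13.2% of all genes.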
